A study of Mus musculus with 7 samples.

Results

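Gene expression was compared between cloned mouse embryos made with vitrified and warmed recipient oocytes and cloned embryos made with fresh recipient oocytes, neither group given melatonin (whether they got vehicle is not stated sample by sample). The members are 5 of the 7 RNA-seq libraries of the study, chosen by their titles: 3 libraries from vitrified oocytes (CROC+K, replicates 1 to 3) and 2 from fresh oocytes (FOC+K, replicates 1 and 2). All embryos were wild-type B6D2F1, were made by somatic cell nuclear transfer (SCNT), which places the nucleus of a cumulus cell into an enucleated oocyte, and had received an injection of Kdm4a mRNA; the samples are labelled as 2-cell embryos. The other 2 libraries (CROC+K+M) came from vitrified oocytes, Kdm4a mRNA and 10 µM melatonin, and their values are given only beside those of the members. Each library was a pool of 50 to 100 embryos, and the unit of every level is FPKM, fragments counted for a gene and divided by its length and by the size of the library, as deposited. The title of the study names regulation against apoptosis with cryopreserved oocytes, and the comparison asks which transcripts differ when the oocyte has been vitrified.

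Vitrification cools an oocyte in concentrated cryoprotectant so fast that its water forms a glass. Osmotic and thermal stress, a dissolved and rebuilt spindle, oxidants and stress of the endoplasmic reticulum and the mitochondria are its known burdens. An oocyte that becomes a cloned embryo must also silence the donor cell's program and, in the mouse, switch on the embryonic genome at the 2-cell stage while maternal RNA is being cleared. Kdm4a encodes a demethylase of trimethylated histone H3 lysine 9, a mark that resists reprogramming after nuclear transfer, so all 5 libraries share that help and none of them shows vitrification without it.

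The 3 CROC+K libraries did not form one block. CROC+K replicate 1 lay closer to FOC+K replicate 2 (Pearson r 0.974 across genes, log2 scale) than to CROC+K replicates 2 and 3 (0.912 and 0.908), and FOC+K replicates 1 and 2 had an r of 0.974 with each other. In 69.7% of the genes tested CROC+K replicate 1 was nearer to the mean of FOC+K than to the mean of the other CROC+K libraries; for replicates 2 and 3 that share was 44.3% and 44.2%. Rn45s, the ribosomal RNA precursor, stood at 1183 and 1047 FPKM in FOC+K and at 2114, 266 and 237 in CROC+K, so that replicate 1 was above and replicates 2 and 3 were below the fresh libraries. The summed FPKM of CROC+K replicates 2 and 3 (797689 and 814958) exceeded those of the other 3 libraries (552356 to 585039). Kdm4a, in whose value injected and embryonic mRNA cannot be told apart, stood at 2014 and 816 FPKM in FOC+K and 497, 4051 and 4949 in CROC+K, with the lowest and the highest values both in CROC+K. Of the 10 markers of the oocyte and 2-cell embryo, all but Tcstv3 were detected, and their summed FPKM ran from 13750 to 17630 in FOC+K and CROC+K replicate 1 and from 34030 to 37530 in CROC+K replicates 2 and 3. Dppa3 made up most of each sum, at 13894.5 and 10568 FPKM in FOC+K and 9630.5, 28800 and 30586 in CROC+K. The sums therefore describe mainly that gene and not the markers as a class. Cdx2, which defines the trophectoderm, was listed at 0 in all 5 libraries. The 18 trophectoderm and blastocyst markers summed to between 69.3 and 163 FPKM, against 26410 in CROC+K+M replicate 1. Of these 18, 8 were under 1 FPKM in all 5 libraries, while others such as Id2 (12.3 to 102 FPKM) and Dab2 (15.1 to 17.2) were present in each. Markers of cumulus cells, the donor cell type, summed to between 46.5 and 66.4 FPKM over 22 genes, with Amh, Pgr, Ptx3 and Wt1 listed at 0. Of these 22, 12 were under 1 FPKM in all 5 libraries, while others such as Serpine2 (20.5 to 48.4 FPKM) and Amhr2 (2.70 to 7.46) were present in each. The lowest values above 0 correspond to about 3870000 to 5320000 counted fragments a library, at which 1 FPKM of a transcript of 1500 bases is between 5.8 and 8.0 fragments.

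No gene passed an adjusted p of 0.05 in limma's moderated test of log2(FPKM + 1) over the 12274 genes with FPKM of at least 1 in 2 or more of the 7 libraries, and the lowest adjusted value was 0.981. Before adjustment, 222 genes (1.81%) had a p under 0.05 with higher levels in CROC+K and 185 (1.51%) with lower levels, together 3.32%. In 1185 genes (9.65%) every CROC+K library was above both FOC+K libraries, and in 1162 genes (9.47%) every one was below. These genes are called non-overlapping from here on. Groups of 2 and 3 libraries often separate when the values are in random order. The counts and the genes named from them therefore do not by themselves show a difference between the groups. Where values are joined by "against", the 2 FOC+K libraries come first and the 3 CROC+K libraries follow, each in order of replicate. The non-overlapping genes had a median difference of 0.52 in the higher and -0.55 in the lower direction on the log2(FPKM + 1) scale, a scale that understates differences of low genes. Only 6 of the higher and 6 of the lower had a gap of 1 or more on that scale between the nearest libraries of the groups. Abundant transcripts leaned upward: of 1785 genes with a mean of 50 FPKM or more, 19.8% were non-overlapping higher and 3.7% lower, against 6.22% and 12.0% of 5418 genes under 5 FPKM. Scaling all libraries to the same summed FPKM moved the median difference of all genes from -0.03 to -0.30 and the non-overlapping split to 424 higher and 2530 lower, so the balance of directions depends on that scale. Each library is a bulk pool, in which fewer cells of a kind and less RNA per cell cannot be told apart. Without CROC+K replicate 1 there were 3050 non-overlapping genes higher and 3358 lower (24.8% and 27.4%) and still none past the adjusted threshold, at a smallest adjusted p of 0.0766.

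Among the transcripts that were higher in every vitrified-oocyte library, Tmsb4x had the smallest unadjusted p of the genes named by the rule. It encodes thymosin beta 4, which holds actin in its monomeric form. Tmsb4x stood at 51.7 and 48.9 FPKM in FOC+K and at 109, 167 and 144 in CROC+K, a log2 difference of 1.44 ± 0.26 (SE; unadjusted limma p 0.000949). The nearest libraries of the groups were more than 1 log2 unit apart, and the CROC+K+M libraries, read against the same fresh libraries, held 3126 and 56.98 FPKM. Apoa2, a lipoprotein component, read 5.52 and 2.91 FPKM in FOC+K and 9.91, 17.2 and 17.2 in CROC+K, a difference of 1.60 ± 0.38. Rpph1, the catalytic RNA of ribonuclease P, which trims the 5′ end of transfer RNA precursors, was at 2.83 and 6.22 FPKM in FOC+K and 12.5, 46.4 and 24.97 in CROC+K, a difference of 2.28 ± 0.56. Its CROC+K values spread nearly as widely as the groups differed, with replicate 1 lowest, and it is a short RNA whose FPKM depends strongly on its length. Sil1, the exchange factor that frees ADP from the chaperone BiP in the endoplasmic reticulum, was at 4.08 and 2.85 FPKM in FOC+K and 7.64, 11.3 and 12.6 in CROC+K, so its lowest vitrified value stood well above the fresh pair.

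**Figure D1:**
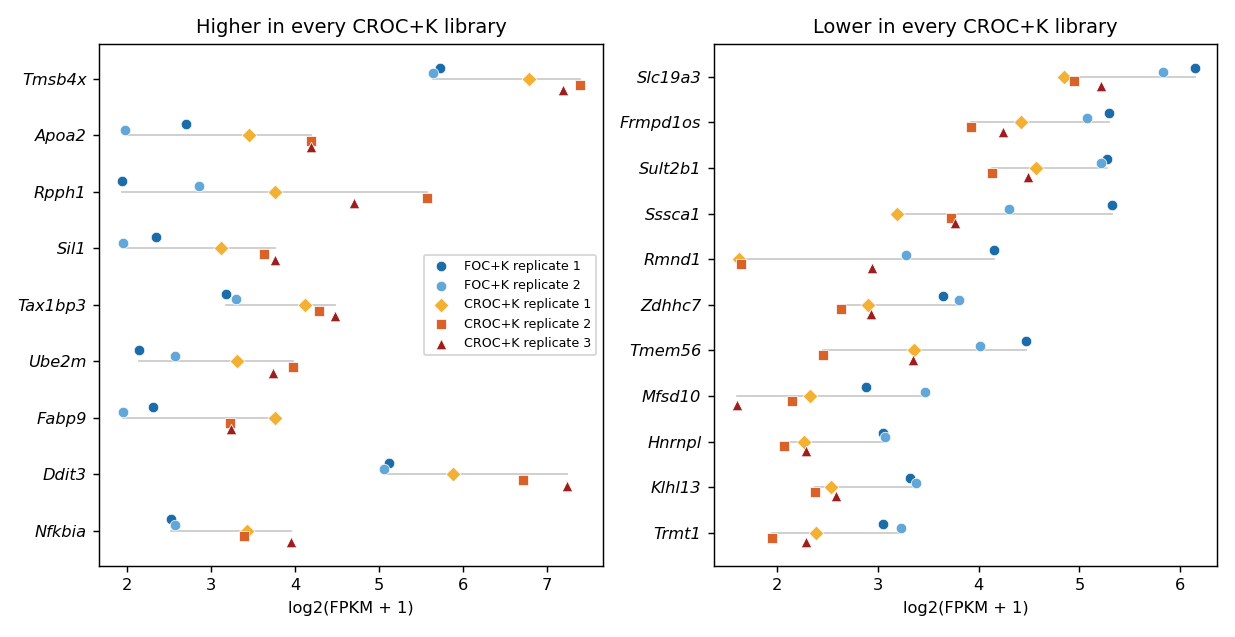
Level of genes taken by the rule for the smallest p and the widest gap, as log2(FPKM + 1) on the horizontal axis, 1 row a gene and 1 symbol a library, with higher genes on the left and lower genes on the right. In Tmsb4x, Hnrnpl and Klhl13 the symbols of each group are tight and far apart, whereas Rpph1, Rmnd1 and Mfsd10 spread widely within a group.

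The other leading genes on the higher side ranged over signalling and protein modification. Tax1bp3, a small PDZ protein, stood at 8.06 and 8.78 FPKM in FOC+K and 16.4, 18.5 and 21.2 in CROC+K. Ube2m, the conjugating enzyme that passes NEDD8 to cullins, stood at 3.40 and 4.92 against 8.88, 14.7 and 12.3. Nfkbia, the inhibitor that keeps NF-kappa-B in the cytoplasm, stood at 4.76 and 4.94 against 9.77, 9.45 and 14.4. In each of these 3 genes the lowest CROC+K library was clear of the FOC+K pair. The 2 CROC+K+M libraries held 32.8 and 4.57 FPKM of Tax1bp3, 72.7 and 2.87 of Ube2m and 9.61 and 2.84 of Nfkbia, so that replicate 1 was above and replicate 2 below both fresh libraries in all 3. Fabp9, a fatty acid binding protein best known from testis, was highest in CROC+K replicate 1, at 12.5, 8.33 and 8.45 FPKM in CROC+K against 3.94 and 2.87 in FOC+K.

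On the lower side Slc19a3, Frmpd1os and Sult2b1 differed by close to 1 log2 unit, and Rmnd1 and Sssca1 by more. Slc19a3, a thiamine transporter, stood at 69.5 and 55.7 FPKM in FOC+K and 27.8, 29.7 and 36.1 in CROC+K, a difference of -0.98 ± 0.25 (unadjusted p 0.00611). Frmpd1os, a transcript opposite to Frmpd1, stood at 38.1 and 32.6 FPKM against 20.4, 14.2 and 17.9, and Sult2b1, a sulfotransferase for cholesterol, at 37.8 and 36.05 against 22.8, 16.6 and 21.5. In all 3 the CROC+K values were tight, replicate 1 included; whether the counting used the strand is not given in the sources used here, so reads of Frmpd1os and its partner cannot be told apart. The 2 CROC+K+M libraries held 34.3 and 82.4 FPKM of Slc19a3, 7.50 and 63.2 of Frmpd1os and 11.8 and 54.3 of Sult2b1, so that replicate 1 was below and replicate 2 above both fresh libraries in all 3. Rmnd1, which is needed for translation in mitochondria, stood at 16.8 and 8.70 FPKM in FOC+K and 2.09, 2.13 and 6.70 in CROC+K, a difference of -1.64 ± 0.51. Sssca1 stood at 39.02 and 18.7 against 8.13, 12.2 and 12.6, a difference of -1.25 ± 0.38; the 2 fresh libraries differed from each other about as much as the groups did.

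Hnrnpl, a regulator of splicing, had a wide gap between tight groups, with 7.31 and 7.43 FPKM in FOC+K and 3.82, 3.22 and 3.90 in CROC+K, a difference of -0.85 ± 0.30. Klhl13, an adaptor of a cullin ubiquitin ligase that acts in mitosis, showed the same tight pattern, at 9.0 and 9.42 against 4.83, 4.22 and 5.0. Trmt1, which methylates a guanosine of transfer RNA, stood at 7.29 and 8.39 against 4.26, 2.88 and 3.90. The palmitoyltransferase gene Zdhhc7 stood at 11.6 and 13.02 against 6.48, 5.21 and 6.67, Tmem56 at 21.2 and 15.2 against 9.30, 4.49 and 9.18, and the transporter-like Mfsd10 at 6.37 and 10.1 against 4.03, 3.45 and 2.05. None of these 6 genes exceeded 21.2 FPKM in any of the 5 libraries.

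The p53 pathway held a larger share of non-overlapping higher genes than the table as a whole. p53 is a transcription factor that is stabilised by DNA damage and other stress and turns on genes of arrest, repair and apoptosis. Of 31 tested members of the list, 8 were non-overlapping higher (25.8%, against 9.65% of all genes) and 3 lower (9.68%, against 9.47%). The median difference was 0.22 (all genes -0.03), or -0.07 after scaling to equal sums (all genes -0.30). Trp53 itself was at 8.90 and 9.52 FPKM in FOC+K and 14.2, 17.1 and 21.6 in CROC+K, a difference of 0.85 ± 0.29 (unadjusted p 0.0213). Gadd45a, a stress sensor that slows the cell cycle, was at 42.4 and 43.4 against 61.5, 111 and 77.9, and Plk2, a stress-responsive kinase, at 5.40 and 5.45 against 10.1, 9.83 and 9.55. In these 3 genes the fresh pair agreed closely, and Plk2 was nearly equal in the 3 vitrified libraries. Pmaip1 (Noxa), a BH3-only protein that neutralises the MCL1 protein, was low but separate, at 0.485 and 1.90 FPKM in FOC+K and 6.66, 3.67 and 4.19 in CROC+K, with replicate 1 highest. Rps27l, a p53 target and a copy-rich relative of a ribosomal protein, stood at 4210.0 and 4764 against 5901, 8996 and 8981. Gadd45b, a relative of Gadd45a and named here after its values were seen, was at 62.8 and 61.3 against 121, 81.6 and 98.6.

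The best-known p53 target was lower. Cdkn1a, which encodes the cyclin-dependent kinase inhibitor p21, stood at 32.02 and 31.6 FPKM in FOC+K and 25.1, 15.6 and 14.3 in CROC+K, a difference of -0.81 ± 0.31 (unadjusted p 0.0361), and CROC+K+M held 52.03 and 34.6. Ei24, a p53-induced gene of the endoplasmic reticulum, was at 48.9 and 39.4 against 20.7, 34.05 and 32.3, and Trim8, which stabilises p53, at 1.18 and 1.65 against 0.682, 1.17 and 0.590. So within the list Trp53, Gadd45a, Plk2, Pmaip1 and Rps27l were higher and Cdkn1a, Ei24 and Trim8 lower in each of the 3 vitrified libraries. None of these differences passed the adjusted threshold. The 2 CROC+K+M libraries held 11.1 and 7.94 FPKM of Trp53, 6.84 and 2.94 of Plk2, 3.54 and 1.49 of Pmaip1 and 49.3 and 85.7 of Gadd45a. Both lay below every CROC+K library in Trp53, Plk2 and Pmaip1. For Gadd45a, CROC+K+M replicate 1 lay below CROC+K and replicate 2 within it. CROC+K+M replicate 1 is the library with trophectoderm markers (26410 FPKM summed), which limits its comparison with CROC+K. Without CROC+K replicate 1, 10 members were non-overlapping higher and 6 lower (32.3% and 19.4%, against 24.8% and 27.4% of all genes).

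Of 32 tested genes of the unfolded protein response, 4 were non-overlapping higher (12.5%, against 9.65% of all genes) and 1 lower (3.12%, against 9.47%), so the higher share was near that of the table as a whole. The response senses unfolded protein in the endoplasmic reticulum; PERK and eIF2 alpha phosphorylation lead through ATF4 to Ddit3 (CHOP), a transcription factor that favours apoptosis, and to Ppp1r15a (GADD34), which restores translation, whereas ATF6 and XBP1 raise chaperones through a promoter motif, the endoplasmic reticulum stress element (ERSE). Ddit3 stood at 33.8 and 32.2 FPKM in FOC+K and 57.8, 104 and 149 in CROC+K, a difference of 1.52 ± 0.40 (unadjusted p 0.00679), with replicate 1 closest to the fresh pair. Ppp1r15a stood at 58.2 and 42.6 against 69.7, 132 and 120.2, a difference of 1.04 ± 0.34. Calr, a calcium-binding chaperone, was at 85.3 and 74.7 against 101, 117 and 135, and Edem2, which marks misfolded glycoproteins for disposal, at 36.5 and 40.4 against 53.3, 54.4 and 59.6. These are the 4 higher members. Trib3, a target of ATF4 and CHOP, was the lower one (11.2 and 7.60 FPKM against 6.44, 7.54 and 3.97), and Chac1, another target of ATF4, overlapped between the groups at 2.91 and 5.35 against 4.32, 3.78 and 0.161, a difference of -0.69 ± 0.70 that was 0.0169 without CROC+K replicate 3. The master chaperone Hspa5 (BiP) overlapped between the groups, at 89.9 and 94.7 FPKM and 127, 84.2 and 109, as did Hsp90b1, at 65.1 and 58.2 against 104, 41.02 and 56.5, and Atf4, at 107 and 106 against 139, 79.1 and 62.5; these 3 and Chac1 were named after their values were seen. In the melatonin libraries Ddit3 held 161 and 38.3 FPKM, 1 value above and 1 close to the fresh pair. Without CROC+K replicate 1, 9 members were higher and 9 lower (28.1% each, against 24.8% and 27.4% of all genes).

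The promoters of these genes show which of them carry the ERSE, which reads CCAAT, then 9 bases of any kind, then CCACG. They were read from RefSeq windows of GRCm38.p6 (250 bases before to 50 after the start of the gene, both strands searched), which hold an exact match in 0.119% of 32851 windows. Of the 28 tested members of the list with a window, 7 held an exact match, among them Hspa5 and Calr; 1 of the 7, Calr, was non-overlapping higher, and their median difference was 0.02, against 0.08 for the 21 without an exact match. The stretch before the start is shown for the chaperone gene Hspa5, which overlapped between groups, for Calr and for Ddit3, which had the largest difference. Capitals mark the 2 fixed blocks of the motif, which in Calr and Ddit3 lie on the opposite strand and so read CGTGG first and ATTGG second, except that the first block of Ddit3 ends in another base. Each stretch is given 5′ to 3′ on the strand of its gene.
Hspa5, chr2:34771860-34772089, plus strand: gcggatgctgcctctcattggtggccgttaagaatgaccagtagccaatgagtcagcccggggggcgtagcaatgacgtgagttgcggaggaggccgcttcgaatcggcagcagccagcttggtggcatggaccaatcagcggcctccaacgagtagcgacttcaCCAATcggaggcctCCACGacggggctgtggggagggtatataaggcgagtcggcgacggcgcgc
Calr, chr8:84846932-84847161, minus strand: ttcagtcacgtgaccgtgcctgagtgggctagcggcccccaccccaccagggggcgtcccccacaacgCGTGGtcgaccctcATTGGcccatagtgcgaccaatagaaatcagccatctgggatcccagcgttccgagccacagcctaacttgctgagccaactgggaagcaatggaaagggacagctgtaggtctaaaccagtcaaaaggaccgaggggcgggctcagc
Ddit3, chr10:127290563-127290792, plus strand: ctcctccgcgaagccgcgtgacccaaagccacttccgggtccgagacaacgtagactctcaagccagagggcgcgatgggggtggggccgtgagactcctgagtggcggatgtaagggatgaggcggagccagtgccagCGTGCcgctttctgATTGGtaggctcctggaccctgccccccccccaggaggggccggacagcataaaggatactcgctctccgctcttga
The Ddit3 stretch holds a near match with the substitution C15G, counted from 1 at the 5′ end of the motif, and 1.5% of all windows hold a match with at most 1 such mismatch. A match describes letters in the window and was not tested for binding.

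**Figure D2:**
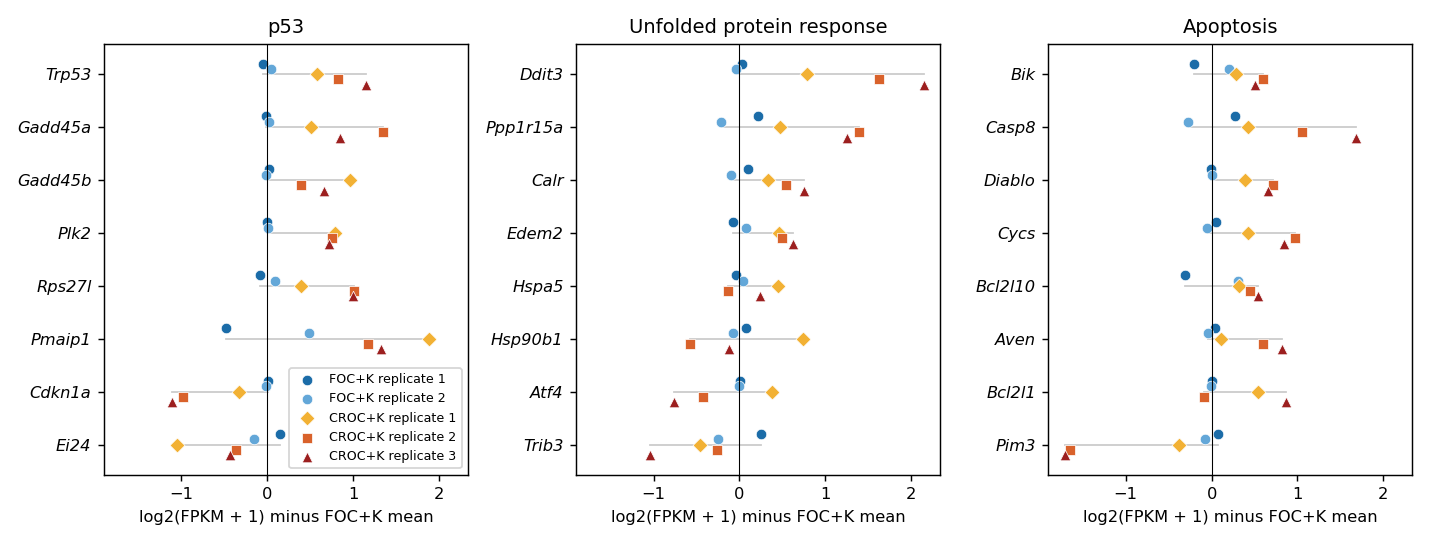
Level of stress and apoptosis genes in each library relative to the mean of FOC+K, as a difference in log2(FPKM + 1) on the horizontal axis, 1 row a gene and 1 symbol a library, in panels for p53, the unfolded protein response and apoptosis. All 3 CROC+K symbols of Ddit3, Trp53 and Gadd45a lie to the right of both FOC+K symbols, those of Cdkn1a and Pim3 to the left, and those of Hspa5, Hsp90b1 and Atf4 on both sides.

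Genes of the apoptotic machinery itself differed in both directions. Bcl2 family proteins decide whether mitochondria release cytochrome c, which then assembles the apoptosome and activates caspases. Of 10 tested BH3-only and effector genes, 2 were non-overlapping higher and 1 lower (20.0% and 10.0%, against 9.65% and 9.47% of all genes): besides Pmaip1, Bik was at 64.8 and 86.4 FPKM in FOC+K and 91.05, 114 and 106 in CROC+K, and Bcl2l13 was at 7.86 and 7.44 against 5.09, 7.26 and 5.27. Of 24 caspases, death receptors and apoptosome genes, 4 were higher (16.7%, against 9.65%) and 0 lower (9.47% of all genes were lower). Casp8, the initiator caspase of death receptors, was at 3.43 and 2.03 FPKM in FOC+K and 3.92, 6.61 and 10.7 in CROC+K, and Cradd, an adaptor that recruits caspase 2, was at 0.810 and 0.941 against 1.69, 1.86 and 2.75. Cradd was under 1 FPKM in both FOC+K libraries and entered the test only through libraries from vitrified oocytes. Diablo, the mitochondrial protein that relieves caspases of their inhibitors, was at 76.7 and 76.9 against 101, 126 and 122, a difference of 0.59 ± 0.23 with a fresh pair that was almost equal. Cycs, cytochrome c, was at 54.6 and 50.7 against 70.7, 104 and 94.95. The median difference over the 24 genes was -0.11, and 10 of the 24 had a higher mean in CROC+K. Without CROC+K replicate 1, 5 of the 24 were higher and 8 lower (20.8% and 33.3%, against 24.8% and 27.4% of all genes). The 10 BH3-only and effector genes then held 2 higher and 3 lower (20.0% and 30.0%).

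Survival genes were mixed. Of 27 anti-apoptotic and survival genes, 4 were non-overlapping higher and 2 lower (14.8% and 7.41%, against 9.65% and 9.47% of all genes). The median difference was 0.22, or -0.07 after scaling to equal sums, when all genes stood at -0.30. Bcl2l10, the abundant Bcl2 relative of the oocyte, was at 1241 and 1907 FPKM in FOC+K and 1920.4, 2089 and 2238 in CROC+K; the lowest CROC+K value and the highest FOC+K value nearly met. Naip1, of the inhibitor of apoptosis family and a group of close copies, was at 1.77 and 2.06 against 3.76, 3.31 and 3.23, Aven, an inhibitor of apoptosome assembly, at 171 and 163 against 180.1, 254 and 296, and Tnfaip8 at 45.3 and 37.7 against 52.03, 66.1 and 49.03. The kinase gene Pim3, which promotes survival, had the largest difference of the list: 13.5 and 12.1 FPKM in FOC+K and 9.58, 3.39 and 3.22 in CROC+K, or -1.25 ± 0.46. Api5, an inhibitor of apoptosis, was at 45.1 and 42.1 against 40.8, 39.6 and 33.5. Without CROC+K replicate 1 the list had 11 higher and 4 lower (40.7% and 14.8%, against 24.8% and 27.4% of all genes).

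Heat shock genes gave few separations over the 5 libraries. Heat shock proteins refold damaged protein; of 41 tested, 2 were non-overlapping higher and 2 lower, both 4.88% and under the share of all genes. Hspbp1, which releases nucleotide from Hsp70 and so restrains it, had the largest difference, at 11.1 and 6.20 FPKM in FOC+K and 2.85, 1.12 and 1.37 in CROC+K (-1.80 ± 0.42, unadjusted p 0.00374). Stub1 (CHIP), the ubiquitin ligase that works with Hsp70, was at 14.5 and 14.3 against 13.2, 10.4 and 12.04. The co-chaperones Dnaja1 (32.6 and 25.3 against 34.2, 36.6 and 37.7 FPKM) and Ahsa1 (307 and 304 against 325, 426 and 464) were the 2 higher ones, of which Dnaja1 turned to a difference of -0.012 after scaling to equal sums. Without CROC+K replicate 1 the list had 17 higher and 4 lower (41.5% and 9.76%, against 24.8% and 27.4% of all genes).

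Of 51 antioxidant genes, 1 was non-overlapping higher and 6 were lower (1.96% and 11.8%, against 9.65% and 9.47% of all genes). Prdx2, an abundant peroxidase, was the higher one, at 3975 and 3387 FPKM in FOC+K and 4831, 5794 and 5847 in CROC+K. Nfe2l2, the transcription factor NRF2 that drives antioxidant genes, was at 18.3 and 17.02 against 11.6, 9.22 and 14.4. Mgst1, a membrane glutathione transferase, was at 4.30 and 3.57 against 2.41, 1.90 and 1.45, Oxr1 at 7.30 and 7.31 against 4.07, 4.21 and 5.61, and Msra, which repairs oxidised methionine, at 13.6 and 13.7 against 11.05, 11.5 and 12.6. The median of the list was 0.03, close to that of all genes. Without CROC+K replicate 1 the antioxidant list had 14 higher and 17 lower (27.5% and 33.3%, against 24.8% and 27.4% of all genes).

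**Figure D3:**
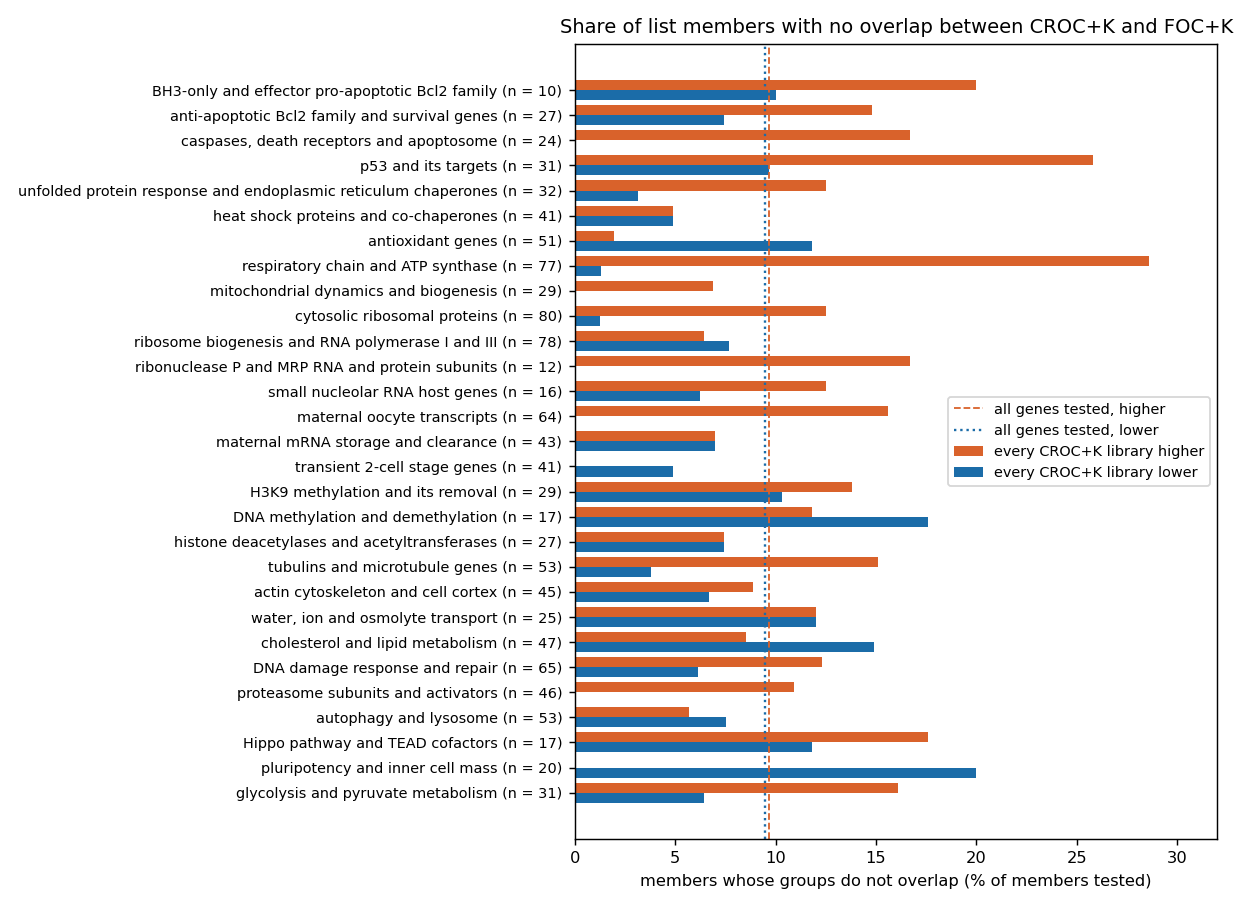
Share of the tested members of each gene list that was non-overlapping, in percent on the horizontal axis, with orange bars for members higher and blue bars for members lower in every CROC+K library; dashed and dotted lines mark 9.65% and 9.47%, the shares of all genes tested. The longest orange bars belong to the respiratory chain (28.6%) and p53 (25.8%) lists.

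The respiratory chain held the largest share of non-overlapping higher genes of any list, 22 of 77 members (28.6%, against 9.65% of all genes), with 1 lower. The chain passes electrons through complexes I to IV and drives ATP synthase, and the early embryo relies on it for ATP. Among the 47 members with a mean of 50 FPKM or more, 19 were higher (40.4%), against 19.8% of all genes that abundant. Ndufa13, a subunit of complex I, was at 45.2 and 54.03 FPKM in FOC+K and 58.2, 106 and 109 in CROC+K. Uqcrq, of complex III, was at 80.9 and 92.3 against 126, 126 and 131, with the 3 vitrified libraries nearly equal. Cox7a2l, which joins complexes III and IV, was at 37.4 and 33.4 against 44.2, 70.1 and 59.9, and Cycs, above, carries electrons between them. Ndufs7, a core subunit of complex I, was the lower one, at 8.83 and 14.9 against 4.55, 6.41 and 1.14.

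The members did not differ in 1 direction in all libraries. The median difference of the list was 0.14, and -0.19 after scaling to equal sums, when all genes stood at -0.30. By library the median against the mean of FOC+K was 0.23 in CROC+K replicate 1, -0.02 in replicate 2 and 0.15 in replicate 3. Without replicate 1, 34 members were higher and 26 lower (44.2% and 33.8%), so in replicates 2 and 3 the list was spread to both sides. In CROC+K+M replicate 1, the library with trophectoderm markers, the members lay above the mean of FOC+K by a median of 2.87.

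**Figure D4:**
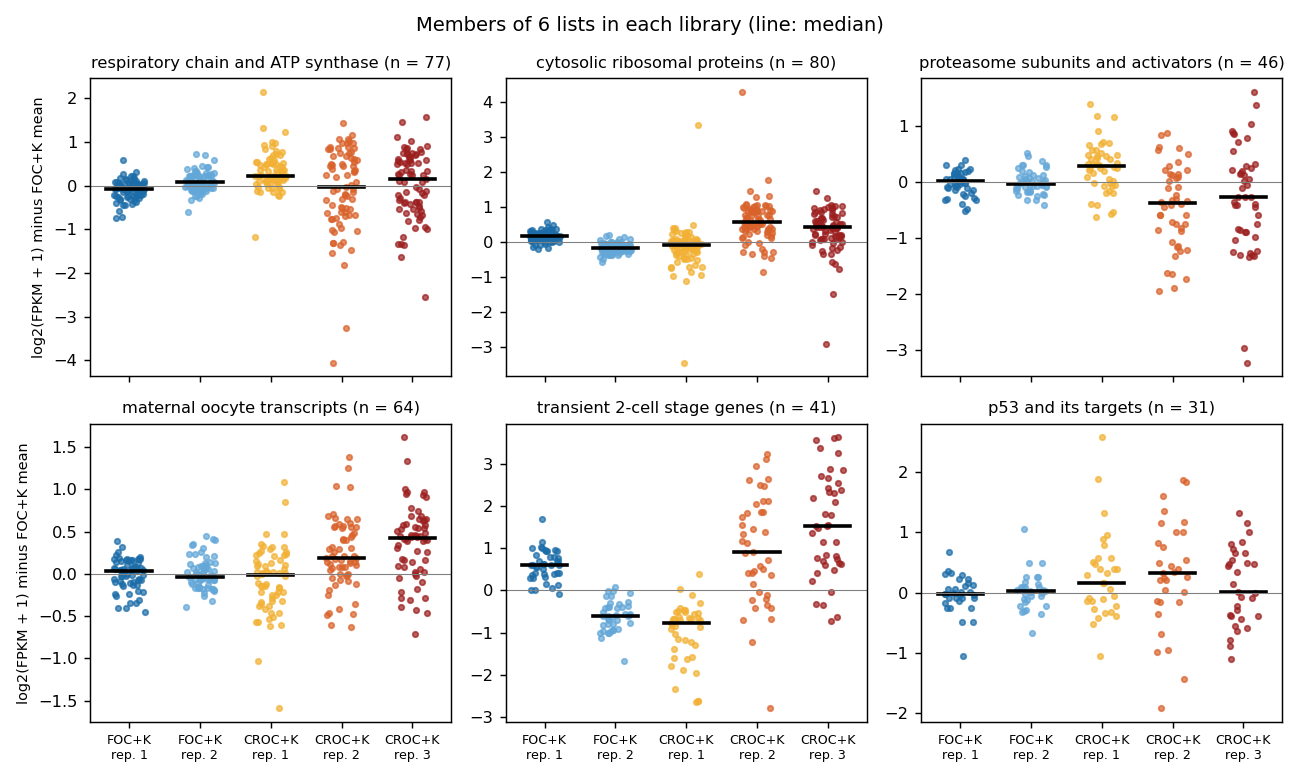
Each dot is 1 gene of a list in 1 library, as log2(FPKM + 1) minus the mean of FOC+K on the vertical axis, and the black line is the median; the vertical scale differs between panels. Genes of the transient 2-cell list sit low in FOC+K replicate 2 and CROC+K replicate 1 (medians -0.60 and -0.77) and high in CROC+K replicates 2 and 3 (0.90 and 1.51).

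Ribosomal protein transcripts had higher medians in CROC+K replicates 2 and 3. Of 80 cytosolic ribosomal protein genes, 10 were non-overlapping higher and 1 lower (12.5% and 1.25%, against 9.65% and 9.47% of all genes). The median difference was 0.32, or -0.02 after scaling to equal sums, when all genes stood at -0.30. Among the 74 with a mean of 50 FPKM or more, 13.5% were higher, against 19.8% of all genes that abundant. The medians by library were -0.08, 0.58 and 0.43 in CROC+K replicates 1, 2 and 3, and without replicate 1 the counts were 53 higher and 6 lower (66.2% and 7.5%, against 24.8% and 27.4% of all genes). Rps21 was at 604 and 523 FPKM in FOC+K and 699.6, 1371 and 919 in CROC+K, Rps23 at 388 and 372 against 462, 632 and 497, and Rpl27a at 71.6 and 67.3 against 97.6, 128 and 78.9. Rpl22 was the lower one, at 63.9 and 45.4 against 43.6, 39.3 and 31.1. Ribosomal protein genes have many processed copies in the genome, so their values depend on how shared fragments were assigned.

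Ribosome assembly factors showed no such lean, with 5 higher and 6 lower of 78 (6.41% and 7.69%, against 9.65% and 9.47% of all genes). Nop14 and Imp4, both parts of the small-subunit processome, were among the higher: Nop14 was at 23.5 and 19.2 FPKM against 38.1, 43.5 and 32.9, and Imp4 at 61.1 and 47.01 against 78.1, 101 and 99.4. Nop56, a core protein of box C/D small nucleolar particles, was at 84.9 and 59.1 against 95.4, 157 and 123, and Nolc1, a nucleolar chaperone of such particles, at 71.8 and 46.9 against 91.7, 88.3 and 85.8. Surf2 was at 9.13 and 7.89 FPKM against 3.22, 0 and 1.87, listed at 0 in 1 vitrified library. Nob1, an endonuclease of small-subunit maturation, was at 64.4 and 56.5 against 45.3, 48.4 and 34.3, Wdr12 at 16.2 and 11.9 against 11.5, 10.97 and 6.28, and Emg1 at 257 and 223 against 221, 194 and 174.

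Of the 12 tested RNA and protein subunits of ribonucleases P and MRP, 2 were higher (16.7%, against 9.65% of all genes) and 0 lower. Besides Rpph1, the protein subunit gene Rpp21 was at 46.996 and 67.5 FPKM in FOC+K and 72.4, 83.4 and 84.02 in CROC+K. Among 16 host genes of small nucleolar RNAs, Snhg12 was at 22.5 and 27.7 against 44.5, 44.9 and 36.3 and Snhg18 at 16.05 and 18.7 against 21.3, 43.8 and 19.6, while Snhg20 was at 42.4 and 47.9 against 36.1, 30.5 and 33.7. The counts of 2 higher and 1 lower are near the background for so few genes.

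Proteasome genes differed between CROC+K replicate 1 and the other 2 CROC+K libraries. The proteasome degrades ubiquitinated protein, including maternal protein after activation of the egg. Of 46 subunits and activators, 5 were non-overlapping higher (10.9%, against 9.65% of all genes) and 0 lower (9.47% of all genes were lower). Psmb3 was at 209.8 and 298 FPKM in FOC+K and 348, 452 and 649.7 in CROC+K, and the assembly chaperone Psmd5 at 127 and 91.9 against 145, 199 and 198. Psmd9, another assembly chaperone, was at 19.8 and 31.3 against 37.7, 38.6 and 46.9, and the catalytic subunit Psmb5 at 30.1 and 24.3 against 36.9, 35.04 and 52.2. Yet the median difference of the list was -0.20, and by library it was 0.29, -0.37 and -0.26 in CROC+K replicates 1, 2 and 3. Without replicate 1, 8 members were higher and 19 lower (17.4% and 41.3%, against 24.8% and 27.4% of all genes).

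Maternal oocyte transcripts were non-overlapping higher in 10 of 64 members (15.6%, against 9.65% of all genes) and lower in 0. The median difference of the list was 0.13, or -0.17 after scaling to equal sums, when all genes stood at -0.30. Among the 38 with a mean of 50 FPKM or more, 8 were higher (21.1%), close to the 19.8% of all genes that abundant. These are the RNAs that the oocyte stores and the embryo clears. Omt2a, from a pair of near-identical oocyte genes, was at 16637 and 15502 FPKM in FOC+K and 19291, 32742 and 31418 in CROC+K. Npm2, a histone chaperone that shapes the chromatin of the egg, was at 255 and 253 against 311, 374 and 394. Bpgm, listed here as an oocyte transcript, was at 221 and 412 against 641, 446 and 414, with replicate 1 highest and replicate 3 barely above the fresh maximum. Oas1e, of a family of close copies, was at 52.5 and 41.8 against 54.8, 69.9 and 75.8. The differences of these 4 genes were smaller than 1 log2 unit, and without replicate 1 the counts were 30 higher and 5 lower (46.9% and 7.81%, against 24.8% and 27.4% of all genes).

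Transient 2-cell stage genes did not separate vitrified from fresh oocytes, although they varied widely among the libraries. They mark the first wave of embryonic transcription in the mouse. Of 41 tested, 0 were non-overlapping higher (against 9.65% of all genes) and 2 lower (4.88%, against 9.47%). The 2 were Tdpoz2, of a multicopy family (17.9 and 7.82 FPKM in FOC+K, 2.34, 0.864 and 7.40 in CROC+K), and Snai1 (5.75 and 4.55 against 3.39, 3.58 and 2.71). The median difference was 0.48, yet by library the medians were 0.60 and -0.60 in FOC+K and -0.77, 0.90 and 1.51 in CROC+K. Zscan4d, the telomere and 2-cell factor, was at 86.9 and 7.56 FPKM in FOC+K and 3.44, 257 and 332 in CROC+K; it was named after its values were seen, like Dppa3, at 13894 and 10568 against 9630.5, 28800.1 and 30586. Gm5662, a 2-cell marker, was at 81.4 and 27.1 against 33.7, 269.7 and 353. In each of these 3 genes CROC+K replicate 1 was with FOC+K replicate 2 at the low end and FOC+K replicate 1 lay between.

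The order of the libraries was that of the Kdm4a level. In 35 of the 41 genes (85.4%) FOC+K replicate 1 and CROC+K replicates 2 and 3 were each above FOC+K replicate 2 and CROC+K replicate 1, a pattern found in 16.4% of all genes. In 21 of the 41 the whole order of the 5 libraries matched that of Kdm4a, against 394 of all 12274 genes. Without CROC+K replicate 1, 27 of 41 were non-overlapping higher (65.9%, against 24.8%) and the median difference was 1.23. Kdm4a and the summed FPKM move with these genes across the libraries, and their part in the result was not tested.

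**Figure D5:**
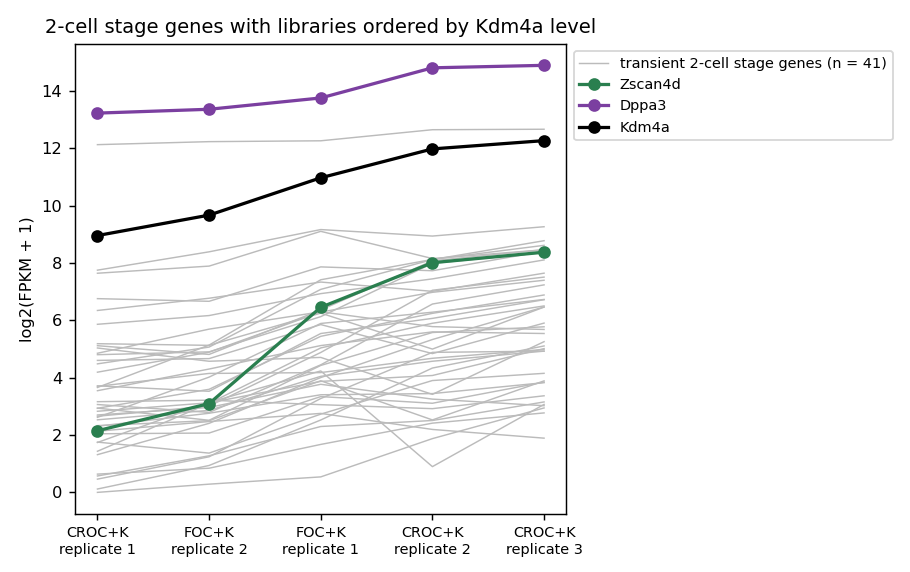
Level of transient 2-cell stage genes (grey lines), Zscan4d, Dppa3 and Kdm4a as log2(FPKM + 1) on the vertical axis, with the 5 libraries placed in order of their Kdm4a level on the horizontal axis. Most lines climb from CROC+K replicate 1 to CROC+K replicate 3 with FOC+K libraries in between, so the order runs across the groups.

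Genes that write, read or remove methylation of histone H3 lysine 9 were non-overlapping in 4 (higher) and 3 (lower) of 29 cases (13.8% and 10.3%, against 9.65% and 9.47% of all genes). Cbx3, a heterochromatin protein, was at 19.3 and 13.9 FPKM in FOC+K and 24.9, 21.9 and 28.2 in CROC+K. Mphosph8, a reader of the mark in the HUSH complex, was at 18.8 and 27.2 against 31.8, 31.2 and 41.5. The methyltransferase relative Setdb2 was at 13.5 and 17.6 against 18.5, 24.7 and 22.1 and Uhrf1, which couples the mark to DNA methylation, at 13.9 and 13.4 against 15.97, 15.5 and 14.4; the difference of Uhrf1 turned to -0.17 after scaling to equal sums. Kdm1b, a histone demethylase needed for maternal imprints, was lower, at 38.3 and 39.9 against 27.5, 30.9 and 28.5. It is counted in this list although it is best known for acting on lysine 4 of histone H3. The methyltransferase Suv39h2 (25.2 and 22.9 against 21.9, 22.1 and 17.5 FPKM) and the demethylase Phf8 (7.41 and 8.61 against 6.14, 6.57 and 6.56) were also lower. The largest of the 7 differences, that of Mphosph8, was 0.59 ± 0.28.

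Of 17 genes of DNA methylation and its removal, 2 were higher and 3 lower (11.8% and 17.6%, against 9.65% and 9.47% of all genes). The de novo methyltransferases were among the latter: Dnmt3a was at 10.6 and 11.6 FPKM in FOC+K and 9.20, 10.3 and 8.70 in CROC+K, and Dnmt3b at 2.92 and 3.12 against 2.43, 1.49 and 2.08. Alkbh1 was at 12.3 and 15.9 against 11.9, 4.83 and 5.52. Zfp57, which protects imprints, was at 65.03 and 73.7 against 99.3, 77.9 and 82.7, and its difference turned to -0.026 after scaling to equal sums. Among 27 acetyltransferase and deacetylase genes 2 were higher and 2 lower (7.41% each, against the same shares of all genes). The acetyltransferase Kat2b had the largest difference, -1.21 ± 0.41, at 5.28 and 5.79 FPKM in FOC+K and 3.41, 1.19 and 1.33 in CROC+K. Sirt5, a mitochondrial deacylase, was at 1.61 and 1.75 against 2.79, 4.96 and 2.46. The coactivator Crebbp (22.1 and 19.98 against 19.5, 19.5 and 16.7 FPKM) had a difference of -0.17 ± 0.25, smaller than its standard error.

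The cytoskeleton matters in vitrification because cooling dissolves spindle microtubules. Of 53 genes listed under tubulins and microtubules, 8 were non-overlapping higher and 2 lower (15.1% and 3.77%, against 9.65% and 9.47% of all genes). The list also holds genes of mitosis and its checkpoint, so its shares do not describe microtubule genes alone. Cdc20, the activator of the anaphase-promoting complex, was at 136 and 89.1 FPKM in FOC+K and 140.3, 241 and 271 in CROC+K; replicate 1 was barely above the higher fresh library. Cdca8, of the chromosomal passenger complex, was at 325 and 245 against 346, 435 and 427, the checkpoint gene Mad1l1 at 5.36 and 5.73 against 9.07, 10.6 and 6.97 and epsilon tubulin, Tube1, at 3.14 and 2.60 against 3.26, 3.84 and 9.03. Numa1, which anchors spindle poles, was at 3.70 and 2.94 against 2.77, 1.83 and 2.11, and Mad2l2 at 144 and 147 against 143, 116 and 121. With replicate 1 left out, 16 members were higher and 15 lower (30.2% and 28.3%, against 24.8% and 27.4% of all genes).

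Of 45 actin and cortex genes, 4 were higher and 3 lower (8.89% and 6.67%, against 9.65% and 9.47% of all genes). Both thymosin genes of the list were among the higher: next to Tmsb4x, Tmsb10 was at 231 and 203 FPKM in FOC+K and 249, 420.1 and 466 in CROC+K. The capping protein gene Capza2 was at 73.3 and 74.2 against 78.3, 94.98 and 129 and the myosin light chain gene Myl6 at 235 and 234 against 249, 357 and 352. Krt8, a keratin of epithelia and trophectoderm, was lower, at 2.94 and 1.60 against 0.511, 0.388 and 0.138 (-1.26 ± 0.38), but in 4 of 5 libraries it was under 2 FPKM. The actin crosslinker Actn4 was at 9.74 and 9.09 against 7.31, 6.93 and 6.72, and the small GTPase gene Rhoa at 131 and 93.7 against 90.6, 82.6 and 88.6.

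Among 25 genes of water, ion and osmolyte transport, through which an oocyte meets the osmotic load of cryoprotectant, 3 were higher and 3 lower (12.0% each). The shares of all genes were 9.65% and 9.47%. Slc4a11, a membrane transporter of protons, had the largest difference, at 7.0 and 8.37 FPKM in FOC+K and 4.08, 1.19 and 0.747 in CROC+K (-1.69 ± 0.50, unadjusted p 0.0126). Slc6a6, the taurine transporter, was at 4.07 and 5.46 against 3.53, 2.09 and 2.16, and the bicarbonate transporter Slc4a7 at 2.44 and 2.62 against 1.11, 1.71 and 2.39. Slc6a20a, a transporter of proline and related imino acids, was at 0.975 and 0.809 against 1.57, 2.33 and 2.10. With both FOC+K values under 1 FPKM, Slc6a20a passed the minimum only through libraries from vitrified oocytes, so its place among the higher members is no support. The chloride and proton exchanger Clcn3 was at 5.02 and 5.21 against 7.44, 6.42 and 6.58. The sodium pump subunit Atp1b1 was at 16.1 and 16.7 against 17.5, 21.5 and 20.9, a difference that turned to -0.0663 after scaling to equal sums. The 2 CROC+K+M libraries held 6.13 and 9.09 FPKM of Slc4a11, 1 below and 1 above both fresh libraries.

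DNA repair genes were non-overlapping higher in 8 and lower in 4 of 65 cases (12.3% and 6.15%, against 9.65% and 9.47% of all genes). The higher ones included 2 glycosylases that start the repair of oxidised bases: Ogg1 was at 1.74 and 1.01 FPKM in FOC+K and 3.64, 4.92 and 3.13 in CROC+K, a difference of 1.04 ± 0.35, and Nthl1 at 2.62 and 4.18 against 8.44, 4.86 and 12.6, a difference of 1.07 ± 0.43. Their levels were low, and Nthl1 in CROC+K replicate 2 was close to the higher fresh library. Pcna, the sliding clamp, was at 164 and 136 against 174, 264 and 309, and Rnf168, a ubiquitin ligase at breaks, at 7.75 and 8.89 against 11.8, 10.3 and 12.99. Fancd2, of the Fanconi pathway, was lower, at 4.61 and 4.48 against 3.09, 2.35 and 0.984, as were Rad54l (5.37 and 6.23 against 5.25, 3.57 and 2.39 FPKM), Topbp1 (18.4 and 18.7 against 18.3, 11.001 and 11.6) and Lig3 (2.33 and 2.27 against 1.92, 1.68 and 1.76). By library the median of the list was 0.19 in CROC+K replicate 1, -0.26 in replicate 2 and -0.04 in replicate 3, and without replicate 1 the counts were 11 higher and 22 lower (16.9% and 33.8%, against 24.8% and 27.4% of all genes).

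Glycolysis and fatty acid oxidation feed the mitochondria, and sterols build membranes. Of 31 genes of glycolysis and pyruvate handling, 5 were higher and 2 lower (16.1% and 6.45%, against 9.65% and 9.47% of all genes), with Mpc2, a subunit of the mitochondrial pyruvate carrier, at 383 and 289 FPKM in FOC+K and 402, 831 and 773 in CROC+K. Aldoa was at 92.01 and 81.6 against 96.5, 183 and 128 and Pkm, pyruvate kinase, at 24.6 and 21.5 against 25.2, 34.9 and 40.8. Gapdh was lower, at 183 and 166 against 149.8, 139 and 148, and Slc16a1, a lactate and pyruvate carrier, was at 6.86 and 6.50 against 5.17, 6.38 and 6.07. Of 47 genes of cholesterol and lipid metabolism, 4 were higher and 7 lower (8.51% and 14.9%, against the same shares of all genes). Apoa2 (above), Hadhb of fatty acid oxidation (12.03 and 10.04 against 21.6, 12.3 and 26.5 FPKM), Lss (1.14 and 1.25 against 2.86, 2.14 and 2.25) and Acadm (206 and 184 against 224, 224 and 259) were higher, and the difference of Acadm turned to -0.0728 after scaling to equal sums and to -0.039 with quantile normalization. The lipoprotein receptor gene Scarb1 (7.16 and 7.41 against 6.63, 3.91 and 2.04 FPKM) and the sterol enzyme gene Ebp (9.61 and 13.2 against 8.62, 7.53 and 5.60) were lower.

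Of 20 tested genes of pluripotency and the inner cell mass, 0 were non-overlapping higher and 4 lower (20.0%, against 9.47%). Zfp42 (Rex1) was at 16.04 and 18.4 FPKM in FOC+K and 14.7, 1.56 and 2.08 in CROC+K, a difference of -1.87 ± 0.76 that rests on replicates 2 and 3. Gata4, a regulator of primitive endoderm, was at 9.80 and 11.3 against 6.31, 6.45 and 4.22, and Klf5, which acts in both early lineages, at 26.1 and 21.5 against 16.6, 17.3 and 12.1. In the Hippo pathway, which controls the first lineage choice through TEAD factors, 3 of 17 were higher and 2 lower (17.6% and 11.8%). The shares of all genes were 9.65% and 9.47%. Vgll4, a repressive TEAD partner, was at 1.70 and 0.464 FPKM against 4.45, 6.58 and 3.82 (1.55 ± 0.41, unadjusted p 0.00724), and Vgll1 at 0.469 and 0.341 against 0.817, 1.87 and 4.88. Vgll1 was under 1 FPKM in both FOC+K libraries and entered the test only through libraries from vitrified oocytes. Tead4, which establishes the trophectoderm, was at 3.57 and 3.11 against 2.04, 1.98 and 0. The kinase gene Stk4 (Mst1) was at 4.14 and 5.34 against 10.1, 5.71 and 9.17, and Lats1, the kinase downstream of it, at 1.68 and 1.54 against 1.01, 0.965 and 1.09. The highest of these Hippo values was 10.1 FPKM.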

How the data were processed

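The deposited table holds 1 FPKM value per gene and library, as the authors made it, in 24319 rows. Per the submitters' processing notes, the mouse build was mm9 and the tools were Cufflinks 2.2.1 and Cuffnorm, STAR 2.5.2b and R 3.3.2. For the annotation, the use of strand and any scaling between libraries nothing is given in the sources used here. Close copies of a gene share fragments, so their single values are uncertain. Per the labels' protocols, RNA with an integrity number above 7.0 was turned into libraries with SMARTer and ScriptSeq kits.

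FPKM were used as deposited, as log2(FPKM + 1). Small RNA genes and ribosomal RNA precursors (1270 rows) were left out, and genes with FPKM of 1 or more in 2 libraries were kept. A gene under that minimum in 1 group could therefore enter through the group where it was high. Groups were taken from the sample titles. limma 3.58.1 with an intensity trend (R 4.3.3) was fitted to the 5 libraries with a group term alone. Its two-sided p-values were corrected over all genes tested after Benjamini and Hochberg. The script was tested on simulated data. The labels speak of biological replicates without saying what they share, so p-values measure only the spread between these samples. Errors are standard errors (SE). Tables and figures used Python 3.11.15 with pandas 2.3.3 and matplotlib 3.10.9.

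The 33 gene lists (1263 symbols, 1241 in the table), the rule for members and the tests were chosen with earlier results of these data known, and no list was tested as a set. The named genes are, among non-overlapping genes with a mean of 5 FPKM or more, the 8 per direction with the smallest p and the 6 with the widest gap, and up to 4 non-overlapping members per direction of each list described (up to 2 members with the smallest p where fewer than 2 did not overlap), and Kdm4a and Rn45s. Genes outside this rule, markers included, were picked with their values in view. Some genes that the rule takes are not reported here. The count of list members without CROC+K replicate 1 was added after seeing the data. Promoter sequences and gene starts are from RefSeq (GRCm38.p6) and were matched by symbol. Transcript lengths are from GENCODE and carry no coordinates here.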

Additional observations from a re-analysis of the deposited data

Results flagged for a closer look

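Some small RNA genes, which were left out of the tests because their length is below that of a sequenced fragment, had higher values in every CROC+K library than in both FOC+K libraries. Snora47, a small nucleolar RNA, was listed at 0 in both FOC+K libraries and at 68.3, 48.1 and 159 FPKM in CROC+K replicates 1 to 3, a median of 68.3. Snora74a was listed at 0 in FOC+K and at 8.33, 4.55 and 14.8 in CROC+K, a median of 8.33. Both were also above 0 in the 2 CROC+K+M libraries, at 128 and 129.7 for Snora47 and 8.08 and 3.18 for Snora74a. Vaultrc5, a vault RNA, was at 15.2 and 27.9 FPKM in FOC+K and at 52.5, 55.2 and 49.5 in CROC+K, a median of 52.5. Mir6340 was at 0 and 44.4 against 109, 82.5 and 91.0, a median of 91.0. Scarna13 was at 0 and 1.48 against 1.79, 1.86 and 8.04, a median of 1.86. These values rest on few fragments, and 5 of 21 small RNA genes that passed the minimum showed the pattern, against 9.65% of the genes tested. Snora47 and Snora74a, at 0 in both FOC+K libraries, passed that minimum only through libraries from vitrified oocytes. The count is therefore tilted toward higher values in CROC+K, and no conclusion is drawn from it. With the small RNA genes kept in the test the smallest adjusted p, that of Snora47, was 0.0637, a value with the same limit.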

How the results depend on the processing

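No gene passed an adjusted p of 0.05 under any of the 16 alternatives, which differed in scaling, filter, pseudocount, model and libraries left out; the smallest adjusted p under them ran from 0.0637 to 1.0. Genes at an unadjusted p under 0.05 numbered 407, against 819 with no filter on low values, 269 with FPKM of 5 or more in 2 libraries, 268 with all 7 libraries in 1 fit and 1753 with array weights, where CROC+K replicate 1 had the lowest weight. With each library left out in turn they ranged from 79 (without FOC+K replicate 2; 89 without FOC+K replicate 1) to 2544 (without CROC+K replicate 1). Non-overlapping genes numbered 424 higher and 2530 lower with equal FPKM sums, 1942 lower with no filter and 616 lower with FPKM of 5 or more. Leaving out 1 library asks for fewer separated values, and gave from 1882 to 3050 higher and from 1784 to 3358 lower. With the replicate number as a block, the count at an unadjusted p under 0.05 was 126, with 1 residual degree of freedom. The numbers are shared by 2 pairs only, and their deviations from the group means had correlations across genes of -0.457 (replicates 1) and -0.273 (replicates 2), so they were not taken as pairs.

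Of the log2 differences of 156 named genes, 14 changed sign under at least 1 alternative. With equal sums these were Acadm -0.0728, Atp1b1 -0.0663, Dcp2 -0.133, Dnaja1 -0.012, Hsp90b1 -0.32, Hspa5 -0.152, Uhrf1 -0.17 and Zfp57 -0.026. With quantile normalization Acadm was -0.039 and Hsp90b1 -0.0938. With the split of libraries by Rn45s as a term Atf4 was 0.38, Chac1 0.095, Dppa3 -0.33, Gm5662 -0.47, Kdm4a -1.36 and Zscan4d -2.63. That term sets CROC+K replicates 2 and 3 apart from the other libraries. These values therefore compare CROC+K replicate 1 alone with the FOC+K libraries. Hsp90b1 was -0.20 with array weights, and Chac1 0.0169 with the replicate block. Replicate number 3 occurs only in CROC+K, so the block gives the same difference as leaving out CROC+K replicate 3. With each library left out in turn Chac1 ranged from -1.08 (without CROC+K replicate 1) to 0.0169 (without CROC+K replicate 3), Hsp90b1 from -0.348 (without CROC+K replicate 1) to 0.311 (without CROC+K replicate 2) and Zscan4d from -0.276 (without FOC+K replicate 2) to 3.42 (without CROC+K replicate 1). Why the libraries differ in these genes was not tested. Values near 1 FPKM rest on few fragments, and the test had 3 residual degrees of freedom. Why no gene passed was not tested.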

Other observations

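Some gene groups not described above are given here beside the shares of all genes, 9.65% higher and 9.47% lower. Of 43 genes of maternal mRNA storage and clearance, 3 were higher in every CROC+K library and 3 lower (6.98% each). Eif4e1b, an oocyte form of the cap-binding protein, was at 34.8 and 37.1 FPKM in FOC+K and 45.8, 63.8 and 51.5 in CROC+K, and the decapping enzyme gene Dcp2 at 33.3 and 36.6 against 40.01, 41.03 and 39.8, a difference that turned to -0.133 after scaling to equal sums. The deadenylase gene Cnot6 was at 20.2 and 20.1 against 12.5, 17.8 and 17.05, and Nanos1, an RNA-binding repressor, at 19.3 and 19.4 against 11.6, 18.3 and 11.5. Of 29 genes of mitochondrial dynamics and biogenesis, 2 were higher (6.9%) and 0 lower: Dnm1l, which divides mitochondria, was at 32.2 and 28.7 against 34.8, 49.3 and 45.7, and Phb, prohibitin, at 43.6 and 45.5 against 54.3, 69.3 and 52.7.

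The direction of non-overlapping genes varied with the length of the transcript. Of 4786 tested genes with transcripts under 1000 bases, 11.9% were higher and 8.02% lower in every CROC+K library. Of 608 genes with transcripts of 4000 bases or more, 5.26% were higher and 14.5% lower. Lengths were found for 99.2% of the genes tested, and the part of length in the results above was not tested.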
